A study of Homo sapiens with 12 samples.

Results

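The EGF receptor family and its ligands were followed through 9 genes: the receptors EGFR, ERBB2 and ERBB3, the ligands AREG, EREG, HBEGF, TGFA and BTC, and ERRFI1, an inhibitor of the receptors. Members were the array probe sets that the platform annotation assigns to exactly 1 symbol among these genes. This gave 29 of the 54613 probe sets that are not array controls, and 8 of the 19775 genes read on the arrays. EGFR has 9 of these probe sets, ERBB3 5, HBEGF 4, ERBB2 and TGFA 3 each, EREG and BTC 2 each and ERRFI1 1. AREG is listed for none of the probe sets with 1 symbol, and none of the probe sets with several symbols holds a member, so AREG was not analysed here.

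The cells were Caco-2, an established line from a human colon carcinoma. Left confluent, it acquires properties of the absorptive cells of the small intestine, and it was used 21 days after confluence at passage 22. The 4 groups had 3 arrays each and all were exposed for 24 h in medium with an insulin, transferrin and selenium supplement. They were cells with surfactant-coated silver nanoparticles (AgPURE) at 25 µg/mL, cells with the same particles at 2.5 µg/mL, cells with silver ions given as silver nitrate (AgNO3) at 0.5 µg/mL, and cells in medium alone. No group received the surfactant without silver, and the labels leave it unsaid whether a group's arrays are separate cultures. P-values therefore measure the spread between arrays, which may be technical. Values are deposited log2 expression values, differences are limma log2 fold changes with standard errors (SE), and a probe set was called at a Benjamini-Hochberg adjusted p under 0.05 over all 54613.

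The ligands of this family are made as membrane-anchored precursors and are released by sheddases. EGFR binds them directly, ERBB3 binds neuregulins and has little kinase activity of its own, and ERBB2 has no known ligand and acts as the partner of the other receptors. Active dimers signal through RAS and ERK and through PI3 kinase, and the response includes inhibitors that act back on the receptor, ERRFI1 among them. In the intestinal epithelium the pathway is known for its part in growth, restitution and repair.

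The promoters of EGFR, HBEGF and ERRFI1, which were higher together at 25 µg/mL, and of ERBB2, which was lower, are shown for reading beside the expression values. Windows run from 250 bases before to 50 bases after a gene's start in RefSeq, on build GRCh38.p14, and are printed 5′ to 3′ on the gene's strand. EGFR has 2 such windows, chr7:55018767-55019066 and chr7:55109589-55109888, both on the plus strand. ERBB2 lies at chr17:39687844-39688143 on the plus strand, HBEGF at chr5:140346554-140346853 and ERRFI1 at chr1:8026260-8026559, both on the minus strand. Capitals mark AP-1 motifs, spelled TGANTCA, and Sp1 GC boxes, spelled GGGCGG, on either strand.
EGFR upstream window: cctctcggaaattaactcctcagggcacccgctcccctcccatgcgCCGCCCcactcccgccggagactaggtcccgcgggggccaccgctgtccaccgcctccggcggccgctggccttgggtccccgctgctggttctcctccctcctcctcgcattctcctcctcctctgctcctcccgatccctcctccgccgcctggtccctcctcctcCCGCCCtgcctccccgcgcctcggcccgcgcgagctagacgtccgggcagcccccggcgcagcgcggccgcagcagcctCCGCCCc
EGFR downstream window: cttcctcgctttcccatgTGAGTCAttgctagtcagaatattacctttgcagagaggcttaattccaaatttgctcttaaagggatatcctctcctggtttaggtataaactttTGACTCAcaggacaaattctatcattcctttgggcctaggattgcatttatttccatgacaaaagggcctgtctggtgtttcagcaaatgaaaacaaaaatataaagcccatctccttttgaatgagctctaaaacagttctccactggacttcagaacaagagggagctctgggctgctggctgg
ERBB2 window: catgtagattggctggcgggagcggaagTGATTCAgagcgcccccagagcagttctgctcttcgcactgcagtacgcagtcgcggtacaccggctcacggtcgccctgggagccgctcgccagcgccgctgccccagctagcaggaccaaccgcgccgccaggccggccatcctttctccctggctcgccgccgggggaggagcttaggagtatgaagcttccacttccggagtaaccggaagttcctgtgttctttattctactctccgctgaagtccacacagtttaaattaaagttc
HBEGF window: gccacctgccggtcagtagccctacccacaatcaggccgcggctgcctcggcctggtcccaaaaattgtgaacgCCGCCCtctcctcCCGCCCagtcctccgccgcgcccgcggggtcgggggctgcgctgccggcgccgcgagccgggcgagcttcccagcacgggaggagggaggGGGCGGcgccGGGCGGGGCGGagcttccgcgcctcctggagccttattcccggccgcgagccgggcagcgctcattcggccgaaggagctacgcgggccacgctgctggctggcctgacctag
ERRFI1 window: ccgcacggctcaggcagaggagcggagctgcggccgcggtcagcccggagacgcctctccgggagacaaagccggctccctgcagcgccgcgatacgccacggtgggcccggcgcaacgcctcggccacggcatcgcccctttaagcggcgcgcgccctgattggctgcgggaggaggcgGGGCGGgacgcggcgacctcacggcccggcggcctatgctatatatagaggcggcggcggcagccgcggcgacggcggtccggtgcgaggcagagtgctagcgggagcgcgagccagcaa
The upstream EGFR window holds 3 GC boxes and no AP-1 motif, and the downstream EGFR window holds 2 AP-1 motifs and no GC box. ERBB2 has 1 AP-1 motif, HBEGF has 5 GC boxes and ERRFI1 has 1 GC box. An AP-1 motif is present in 7.71% and a GC box in 45.0% of all 35116 windows of this length. Of 5 other motifs searched on both strands, the upstream EGFR window holds 3 matches of the AP-2 motif GCCNNNGGC, which 23.2% of all windows contain. ERBB2 holds 1 match of the heat shock element GAANNTTC, present in 6.77% of all windows. The metal response core TGCNCNC, the antioxidant response core TGACNNNGC and the tail-to-tail heat shock element TTCNNGAA matched in none of these 5 windows, and are present in 55.9%, 13.3% and 7.74% of all windows. Of all 10 windows of the members, 4 held the metal response core, in AREG, TGFA and BTC, and 0 held either of the others. In the RefSeq gene order on chromosome 4, EREG, AREG and BTC are consecutive protein-coding genes, with EPGN before EREG.

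At 25 µg/mL the receptors moved in opposite directions. The transcripts of ERBB3 and ERBB2 were lower than in medium at their brightest probe sets, those of EGFR were higher at its 3 bright probe sets, and ERRFI1 and the ligand HBEGF were also higher. Of the 29 probe sets, 7 were called higher, 7 lower and 15 not called, against 12.5% higher and 13.4% lower among all probe sets. The median log2 fold change of the 29 was 0.03, and that of all probe sets was 0.01. Read at the probe set with the highest mean over the 12 arrays, 3 of 8 genes were higher and 2 lower, against 12.8% and 17.9% of all genes, with a median of 0.03 for the 8 and -0.01 for all genes. In bulk RNA, fewer cells expressing a gene and less RNA per cell cannot be told apart.

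**Figure D1:**
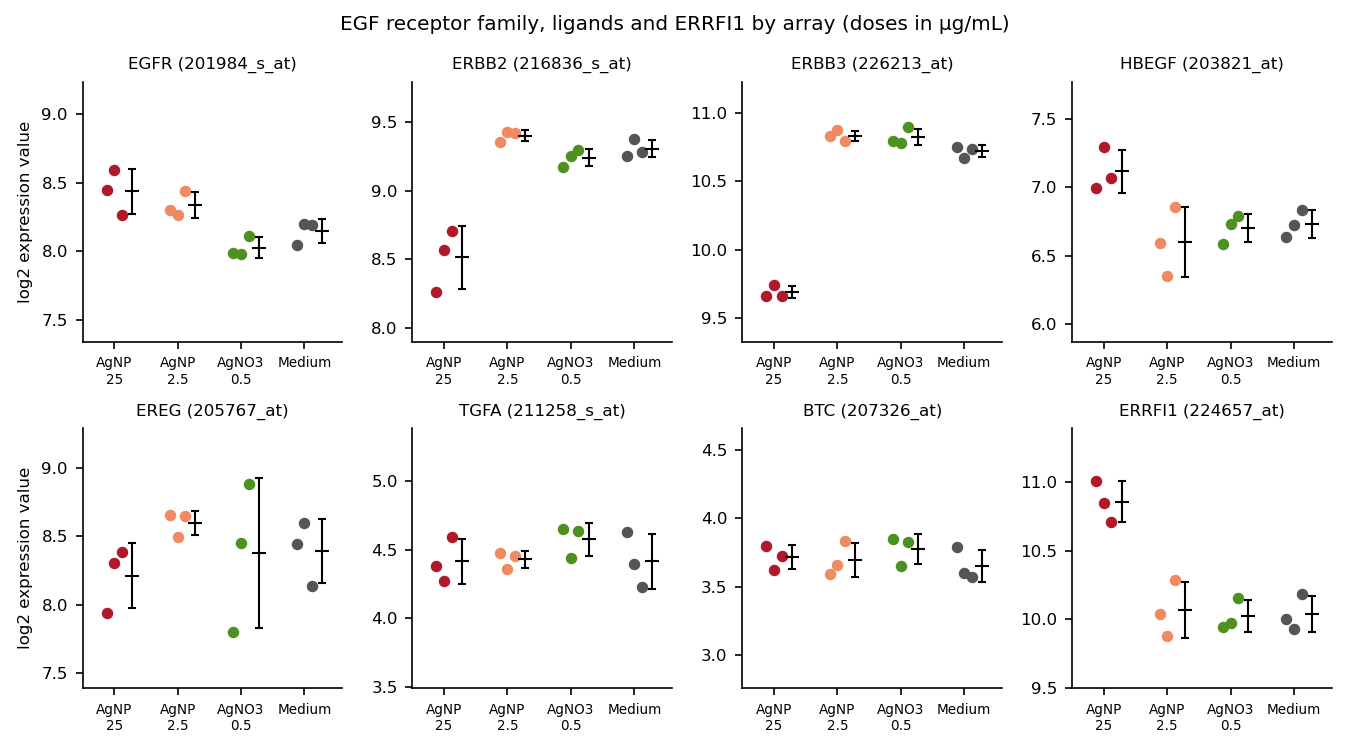
Deposited log2 expression values (vertical axis) of the 8 measured genes at their highest-mean probe set, 1 point per array, for nanoparticles at 25 and 2.5 µg/mL, silver nitrate at 0.5 µg/mL and medium (horizontal axis); bars show the mean ± SD, n = 3, and every panel spans the same number of log2 units. ERBB3 and ERBB2 lie lower and ERRFI1 and HBEGF higher on all 25 µg/mL arrays than on any other array, while the 25 µg/mL and medium arrays overlap for EREG, TGFA and BTC.

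The 25 µg/mL arrays stood apart over all probe sets: arrays of a group correlated with r of 0.992 to 0.996, and 25 µg/mL with medium arrays with r of 0.978 to 0.981. The 24 poly-A control probe sets were 0.61 and the 18 hybridization control probe sets 0.43 higher on the log2 scale at 25 µg/mL than in medium, and scaling each array on them moved the median of all probe sets to -0.60 and -0.42. By array, the poly-A controls averaged 6.21, 5.56 and 6.31 at 25 µg/mL and 5.31, 5.54 and 5.39 in medium. Replicate 2 at 25 µg/mL thus lay close to medium replicate 2, and the poly-A shift came mainly from the other arrays. The hybridization controls averaged 10.97, 10.89 and 11.08 at 25 µg/mL and 10.57, 10.43 and 10.66 in medium, without overlap. Directions are given relative to the authors' normalization unless a scaling is named. Most epithelial markers lay above the median of all values. CDH1, the E-cadherin of cell junctions, averaged 12.03 at 25 µg/mL and 12.46 in medium, and EPCAM, an epithelial adhesion molecule, 13.02 and 13.20. SI, the brush border enzyme sucrase-isomaltase, lay at 3.45 and 3.56, under the median of all values, 4.75. Of 12 epithelial markers 1 was called higher and 6 lower, and their mean per array ran from 8.50 to 8.51 at 25 µg/mL and from 8.86 to 8.94 in medium. Those lower were FABP1 (-1.59), ALPI (-1.38), APOA4 (-0.55), VIL1 (-0.50), CDX2 (-0.44) and CDH1 (-0.43), and KRT18 was higher (0.32). ALPI averaged 4.56 at 25 µg/mL and 5.94 in medium, and FABP1 6.47 and 8.06. Of the markers of other cell types, 2 of 9 fibroblast and 1 of 6 leukocyte genes were lower, 1 of 9 fibroblast, 1 of 5 endothelial and 1 of 6 enteroendocrine genes were higher, and 0 of 6 goblet cell genes were called. The array means of these lists at 25 µg/mL and in medium were 5.57 to 5.63 and 5.75 to 5.84 for fibroblast, 4.43 to 4.61 and 4.61 to 4.67 for leukocyte, and 4.66 to 4.81 and 4.46 to 4.63 for endothelial genes. They were 4.90 to 5.05 and 4.46 to 4.62 for enteroendocrine genes, and 6.08 to 6.15 and 6.02 to 6.09 for goblet cell genes. The 1 enteroendocrine gene called higher was CCK (2.72) and the 1 endothelial gene CDH5 (0.96). The median log2 fold changes of these 2 lists were 0.02 and 0.01, so their higher means do not describe the lists as a whole. The part of these markers in the results below was not tested.

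ERBB3, the neuregulin-binding receptor, had the largest fall of the members. Its probe set 226213_at read 9.66, 9.74 and 9.66 on the 25 µg/mL arrays, 10.83, 10.87 and 10.79 at 2.5 µg/mL, 10.79, 10.78 and 10.89 with silver nitrate, and 10.75, 10.67 and 10.73 in medium. All 25 µg/mL values lay about 1 log2 unit under those of the other 9 arrays, which spanned little. The log2 fold change against medium was -1.03 ± 0.08 (SE, adjusted p = 3.36e-07), a 2.04-fold lower level, and the call and direction held under each of 22 alternatives, at -1.64 with poly-A scaling and -1.46 with hybridization scaling. The probe set 202454_s_at read 8.43, 8.49 and 8.56 at 25 µg/mL against 9.56, 9.62 and 9.63 in medium, a change of -1.11 ± 0.09 (adjusted p = 4.07e-07). 1563253_s_at fell by 0.38 on the log2 scale (adjusted p = 0.0114), a call lost without medium replicate 1 (-0.29, adjusted p = 0.0667) or 25 µg/mL replicate 2 (-0.34, adjusted p = 0.0505). The dim 215638_at fell by 0.50 (adjusted p = 0.0097), and 1563252_at had a difference of -0.03 (adjusted p = 0.892). Thus 4 of the 5 ERBB3 probe sets were called lower, and both bright ones gave nearly the same size.

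ERBB2, the receptor without a known ligand, was lower as well. 216836_s_at read 8.26, 8.57 and 8.71 on the 25 µg/mL arrays, 9.36, 9.43 and 9.42 at 2.5 µg/mL, 9.18, 9.25 and 9.30 with silver nitrate, and 9.26, 9.38 and 9.29 in medium. The 25 µg/mL values were more spread than those of the other groups, with an SD of 0.23 against 0.06 in medium, and lay below all of them. The log2 fold change was -0.79 ± 0.11 (SE, adjusted p = 4.61e-05), 1.73-fold lower, at -1.41 with poly-A and -1.22 with hybridization scaling. The dim 234354_x_at fell by 0.71 (adjusted p = 0.00396), from values of 4.12, 4.18 and 4.07 at 25 µg/mL against 4.65, 4.85 and 5.004 in medium. 210930_s_at, near 3.4 in all groups, differed by -0.20 and was not called.

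EGFR, the receptor that binds the measured ligands, was higher at 3 probe sets by unequal amounts. 224999_at read 8.56, 8.74 and 8.61 on the 25 µg/mL arrays, 7.86, 7.95 and 7.94 at 2.5 µg/mL, 8.04, 7.56 and 7.76 with silver nitrate, and 7.68, 7.75 and 7.65 in medium. 201983_s_at read 8.15, 8.24 and 8.28 on the 25 µg/mL arrays, 7.62, 7.54 and 7.64 at 2.5 µg/mL, 7.54, 7.10 and 7.37 with silver nitrate, and 7.19, 7.49 and 7.40 in medium. At both probe sets every 25 µg/mL array lay above every other array. Their log2 fold changes were 0.95 ± 0.11 (adjusted p = 1.30e-05) and 0.86 ± 0.11 (adjusted p = 4.02e-05), 1.93-fold and 1.82-fold higher. With hybridization scaling they were 0.52 and 0.44 and still called, and with poly-A scaling 0.33 (adjusted p = 0.193) and 0.25 (adjusted p = 0.328).

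The probe set of EGFR with the highest mean, 201984_s_at, moved less. It read 8.45, 8.60 and 8.27 on the 25 µg/mL arrays, 8.30, 8.26 and 8.44 at 2.5 µg/mL, 7.98, 7.98 and 8.11 with silver nitrate, and 8.04, 8.20 and 8.19 in medium. The 25 µg/mL values lay above those in medium but overlapped those at 2.5 µg/mL. The log2 fold change against medium was 0.29 ± 0.10 (adjusted p = 0.0465), and it turned to -0.32 with poly-A and -0.14 with hybridization scaling. The call was lost when any medium array, replicates 1 or 2 of either nanoparticle dose, or replicates 2 or 3 of silver nitrate were left out, with adjusted p between 0.0518 and 0.203. Within each array, 224999_at minus 201984_s_at averaged 0.20 ± 0.13 at 25 µg/mL, against -0.45 ± 0.09 in medium (SD, n = 3 each), and the ranges did not overlap, so these probe sets of EGFR changed unequally whatever the scaling. The remaining 6 EGFR probe sets had low means over the arrays, from 4.34 to 4.83, and 5 of them lay under the median of all values. Of these, 211607_x_at fell by 0.36 (adjusted p = 0.0459), a call lost without any single 25 µg/mL array and without medium replicates 1 or 3, 2.5 µg/mL replicate 3 or silver nitrate replicate 2 (adjusted p from 0.0543 to 0.138), and 5 were not called.

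**Figure D2:**
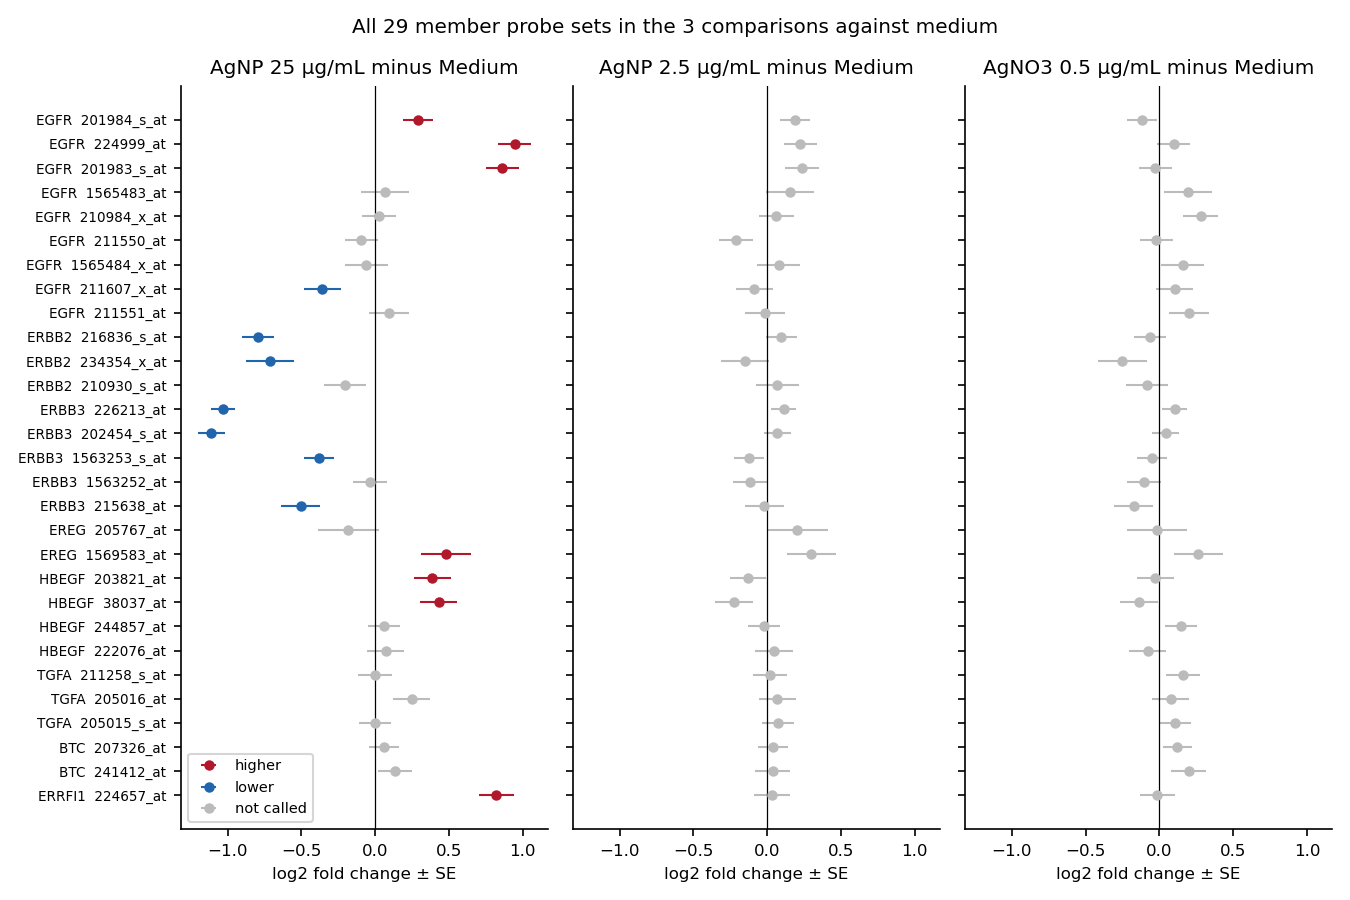
Log2 fold change ± SE (horizontal axis) of all 29 member probe sets, 1 row each, for nanoparticles at 25 µg/mL, nanoparticles at 2.5 µg/mL and silver nitrate at 0.5 µg/mL, each minus medium; red and blue mark probe sets called higher and lower at an adjusted p under 0.05. Calls appear only in the 25 µg/mL panel, 7 higher and 7 lower, and the probe sets of EGFR and of EREG differ among themselves.

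ERRFI1, the feedback inhibitor that binds the kinase domain of EGFR, was higher. 224657_at read 11.01, 10.85 and 10.71 on the 25 µg/mL arrays, 10.04, 9.88 and 10.29 at 2.5 µg/mL, 9.94, 9.97 and 10.16 with silver nitrate, and 10.00, 9.93 and 10.18 in medium. The 25 µg/mL arrays lay above all others, and the remaining groups overlapped. The log2 fold change was 0.82 ± 0.12 (SE, adjusted p = 9.46e-05), 1.77-fold higher. With hybridization scaling it was 0.40 (adjusted p = 0.0333), and with poly-A scaling 0.21 (adjusted p = 0.416).

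HBEGF, a heparin-binding ligand of EGFR and ERBB4, was the only ligand among the measured members that was called at its highest-mean probe set. 203821_at read 6.99, 7.29 and 7.06 on the 25 µg/mL arrays, 6.59, 6.35 and 6.86 at 2.5 µg/mL, 6.58, 6.73 and 6.79 with silver nitrate, and 6.63, 6.73 and 6.83 in medium. The 25 µg/mL arrays lay above the other 9, with a small gap. Its log2 fold change was 0.39 ± 0.13 (adjusted p = 0.0318), 1.31-fold higher. Leaving out medium replicate 1 (0.34, adjusted p = 0.109) or 2 (0.38, adjusted p = 0.0743) ended the call, as did leaving out 25 µg/mL replicate 2 (0.30, adjusted p = 0.144) or 3 (0.41, adjusted p = 0.0549). The probe set 38037_at read 6.67, 6.72 and 6.80 at 25 µg/mL against 6.18, 6.35 and 6.37 in medium, a change of 0.43 ± 0.13 (adjusted p = 0.0202). Leaving out medium replicate 1 (0.37, adjusted p = 0.082) or 25 µg/mL replicate 3 (0.40, adjusted p = 0.0712) ended that call. Under poly-A scaling the differences of these probe sets turned to -0.23 and -0.18, and under hybridization scaling they were -0.04 and 0.00. The dim HBEGF probe sets 244857_at and 222076_at differed by 0.06 and 0.07 and were not called.

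EREG, the ligand epiregulin, gave no single answer. 205767_at read 7.94, 8.30 and 8.39 on the 25 µg/mL arrays, 8.65, 8.49 and 8.64 at 2.5 µg/mL, 7.80, 8.45 and 8.88 with silver nitrate, and 8.44, 8.59 and 8.14 in medium. The 25 µg/mL arrays overlapped those in medium and with silver nitrate but lay below those at 2.5 µg/mL, and the silver nitrate arrays alone spanned more than 1 log2 unit. The difference at 25 µg/mL against medium was -0.18 ± 0.21 (adjusted p = 0.60), and it was -0.79 (adjusted p = 0.00425) with poly-A and -0.61 (adjusted p = 0.00287) with hybridization scaling. Against 2.5 µg/mL it was -0.39 ± 0.21 (adjusted p = 0.202), and the same difference was called when only these groups were fitted (adjusted p = 0.0369). 1569583_at read 5.63, 5.34 and 5.45 at 25 µg/mL against 4.67, 5.16 and 5.16 in medium, a rise of 0.48 ± 0.17 (adjusted p = 0.0484), and turned to -0.13 with poly-A scaling. That call was lost without any single 25 µg/mL array, without medium replicate 1, without 2.5 µg/mL replicates 2 or 3 and without silver nitrate replicate 3, with adjusted p from 0.0553 to 0.221.

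TGFA and BTC, the ligands transforming growth factor alpha and betacellulin, were dim throughout. The 3 TGFA probe sets averaged 4.42, 4.28 and 3.97 at 25 µg/mL and 4.42, 4.03 and 3.98 in medium, and the 2 BTC probe sets 3.71 and 3.49 at 25 µg/mL and 3.65 and 3.36 in medium. All of these lie under the median of all values, and the groups overlapped at each. The deposited values carry no detection calls, so a difference in these genes may not be detectable here. Their log2 fold changes at 25 µg/mL lay between 0.00 and 0.25, and the 95% interval of TGFA at 211258_s_at ran from -0.25 to 0.25 and that of BTC at 207326_at from -0.15 to 0.28.

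**Figure D3:**
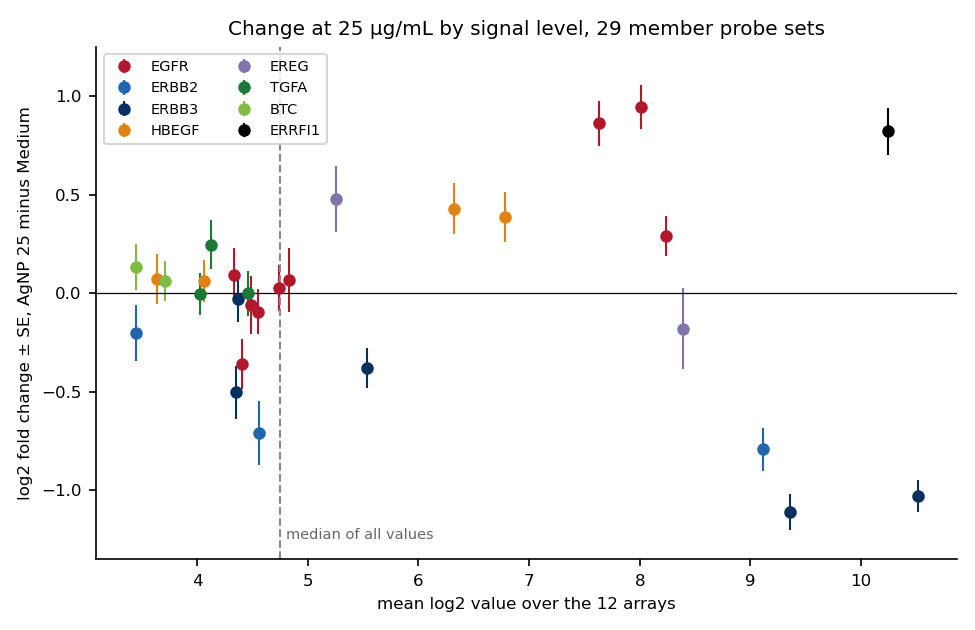
Log2 fold change ± SE at 25 µg/mL minus medium (vertical axis) against the mean log2 value over the 12 arrays (horizontal axis) for the 29 member probe sets, coloured by gene; the dashed line is the median of all values, 4.75. The TGFA and BTC probe sets lie left of the line near 0, and the bright probe sets of ERBB2 and ERBB3 lie apart from those of EGFR and ERRFI1.

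Of the 13 member probe sets with a mean at or above that median, 7 were called higher and 4 lower, against 19.3% higher and 24.1% lower of all 27241 such probe sets. Their median log2 fold change was 0.29, and that of all such probe sets -0.02. Probe sets of the same gene are counted separately here, so the counts are not of independent members. The 7 higher ones belong to EGFR, HBEGF, EREG and ERRFI1, and the 4 lower ones to ERBB3 and ERBB2. The 16 dimmer ones had 0 higher and 3 lower, against 5.79% and 2.77% of all 27372 dimmer probe sets. These 3 were 211607_x_at of EGFR, 234354_x_at of ERBB2 and 215638_at of ERBB3, named here after their values were seen.

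Differences between members within an array do not depend on how the arrays are scaled. Only their shift between groups is read here, since probe sets differ in brightness for the same amount of RNA. EGFR at 224999_at minus ERBB3 averaged -1.05 ± 0.05 at 25 µg/mL, against -3.02 ± 0.09 in medium (SD, n = 3 each), a shift of 1.98. ERRFI1 minus ERBB3 averaged 1.17 ± 0.16 at 25 µg/mL and -0.68 ± 0.11 in medium, a shift of 1.85. HBEGF minus ERBB3 shifted by 1.42, EGFR at 224999_at minus ERBB2 by 1.74 and EGFR at 201984_s_at minus ERBB3 by 1.32. In each of these 5 pairs the 25 µg/mL arrays lay above all medium arrays, so EGFR, ERRFI1 and HBEGF moved up relative to ERBB3 under any scaling of whole arrays. The ranges overlapped for ERBB2 minus ERBB3 (shift 0.24), for ERRFI1 minus EGFR at 224999_at (-0.12) and for HBEGF minus EREG (0.57).

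**Figure D4:**
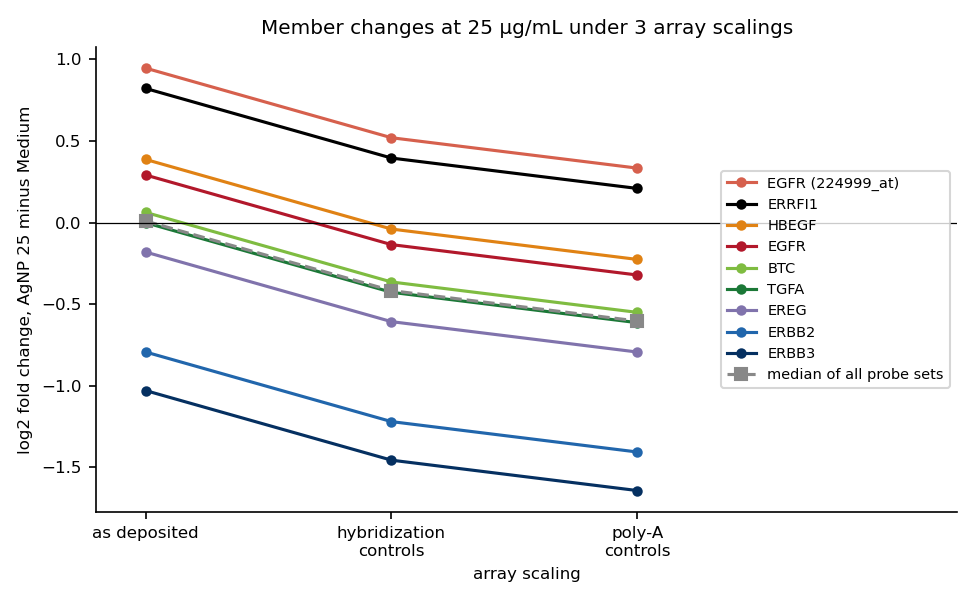
Log2 fold change at 25 µg/mL minus medium (vertical axis) of the 8 genes at their highest-mean probe set, of EGFR at 224999_at and of the median of all probe sets, with the values as deposited, scaled on the 18 hybridization controls and scaled on the 24 poly-A controls (horizontal axis). Lines keep their distances and shift together: ERBB3 and ERBB2 stay below 0, EGFR at 224999_at and ERRFI1 above it, and HBEGF, BTC and EGFR at its highest-mean probe set cross it.

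Neither of the other exposures gave a called member. At 2.5 µg/mL, 0 of 29 probe sets passed limma's threshold and 0 had an unadjusted p under 0.05, against 0% of all probe sets called and 2365 of 54613 with an unadjusted p under 0.05. The log2 fold changes ran from -0.23 to 0.30, and their 95% intervals together covered -0.50 to 0.66. The 3 bright EGFR probe sets and 226213_at of ERBB3 lay above the medium range on all 2.5 µg/mL arrays, with differences of 0.19 (201984_s_at), 0.22 (224999_at), 0.24 (201983_s_at) and 0.11 and an adjusted p of 0.999 each. The other 25 overlapped with medium. The share of all probe sets that lay apart from medium in this way was not counted, so these are a description only. ERRFI1 averaged 10.07 ± 0.21 at 2.5 µg/mL and 10.04 ± 0.13 in medium, a difference of 0.03 with a 95% interval from -0.22 to 0.29. HBEGF differed by -0.13, with an interval from -0.40 to 0.14, and ERBB2 by 0.10, from -0.13 to 0.32.

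With silver nitrate, 0 of 29 member probe sets were called and 1 had an unadjusted p under 0.05 (210984_x_at of EGFR, 0.28, adjusted p = 0.727), against 0.00183% of all probe sets called and 3659 with an unadjusted p under 0.05. The log2 fold changes ran from -0.25 to 0.28, with 95% intervals that together covered -0.60 to 0.62. ERBB3 averaged 10.82 ± 0.06 with silver nitrate and 10.72 ± 0.04 in medium, a difference of 0.10 with an interval from -0.07 to 0.28. ERBB2 differed by -0.06, with an interval from -0.29 to 0.16, ERRFI1 by -0.01, from -0.27 to 0.24, and HBEGF by -0.03, from -0.29 to 0.24.

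The higher particle dose was also set against the lower dose and against the ions, which share the 25 µg/mL arrays with the comparison against medium. Against 2.5 µg/mL, 5 member probe sets were higher and 5 lower, against 12.1% higher and 13.9% lower among all probe sets. ERBB3 at 226213_at changed by -1.14 ± 0.08 (adjusted p = 1.18e-07), ERBB2 at 216836_s_at by -0.89 ± 0.11 (adjusted p = 1.59e-05) and ERRFI1 by 0.79 ± 0.12 (adjusted p = 0.000131). HBEGF at 203821_at changed by 0.52 ± 0.13 (adjusted p = 0.00562), and EGFR at 224999_at by 0.72 ± 0.11 (adjusted p = 0.000147). At 201984_s_at the EGFR difference was 0.10 ± 0.10 (adjusted p = 0.547). Against silver nitrate, given at another dose and in another form, 6 were higher and 5 lower, against 12.7% and 12.1% of all probe sets. ERBB3 changed by -1.13 ± 0.08 (adjusted p = 1.32e-07), ERBB2 by -0.73 ± 0.11 (adjusted p = 0.00011), ERRFI1 by 0.84 ± 0.12 (adjusted p = 8.90e-05) and EGFR at 224999_at by 0.85 ± 0.11 (adjusted p = 3.81e-05). HBEGF changed by 0.41 ± 0.13 (adjusted p = 0.0229), a call lost without 25 µg/mL replicate 2 (0.33, adjusted p = 0.112) or silver nitrate replicate 1 (0.36, adjusted p = 0.08). Between 2.5 µg/mL and silver nitrate 0 of 29 were called, 2 had an unadjusted p under 0.05, and 0% of all probe sets were called, with 4289 at an unadjusted p under 0.05. The 2 were EGFR at 201984_s_at (0.31, adjusted p = 0.61) and at 201983_s_at (0.26, adjusted p = 0.632).

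In the order of group means, EGFR at 201984_s_at stood at 8.44 at 25 µg/mL, 8.33 at 2.5 µg/mL, 8.03 with silver nitrate and 8.14 in medium. The 2 nanoparticle doses overlapped each other, as did silver nitrate and medium, and the pairs were apart from each other. ERBB3 at 226213_at stood at 9.69 at 25 µg/mL, 10.83 at 2.5 µg/mL, 10.82 with silver nitrate and 10.72 in medium. The 2.5 µg/mL and silver nitrate arrays overlapped, the medium arrays lay just beneath both, and the 25 µg/mL arrays lay lowest. For ERBB2, HBEGF and ERRFI1 neighbours in the order overlapped except for 25 µg/mL, which stood apart, and for EREG, TGFA and BTC all neighbours overlapped.

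The genes whose values followed a called member most closely over the 12 arrays are given by Pearson's r as a description, since the groups dominate such a correlation and the arrays are shared. For ERBB3 they were KLHDC2 (r = 0.995), a substrate receptor of a ubiquitin ligase, and SLCO2B1 (r = 0.995), an organic anion transporter, which changed by -1.18 and -1.41 at 25 µg/mL. For ERBB2 they were SERPINB1 (r = 0.989), a protease inhibitor, and FBXL4 (r = 0.989), a mitochondrial F-box protein. For ERRFI1 they were MAFF (r = 0.982), a small MAF transcription factor, and PPP1R15A (r = 0.980), the stress-induced phosphatase subunit GADD34, which changed by 2.10 and 1.63. HBEGF followed CPEB4 (r = 0.938) and MYBBP1A (r = 0.934), and EGFR at 201984_s_at followed RB1CC1 (r = 0.960) and GREB1L (r = 0.919).

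The pathway around the receptors was read from 5 lists, each gene at its highest-mean probe set, and the 25 µg/mL arrays set against medium. These lists were chosen with earlier results of these data known, so their counts are a description. Genes that ERK signalling is known to induce were nearly all higher: 17 of 18 rose, 0 fell, and SPRY1, a Sprouty inhibitor of receptor signalling, differed by -0.35 (adjusted p = 0.0946). Of all genes, 12.8% were higher and 17.9% lower. The list's median was 0.88, against -0.01 for all genes. FOSL1 and FOS, AP-1 transcription factor subunits, averaged 7.27 ± 0.07 and 8.51 ± 0.08 at 25 µg/mL, against 4.31 ± 0.16 and 5.91 ± 0.27 in medium (SD, n = 3), changes of 2.96 (adjusted p = 3.29e-10) and 2.59 (adjusted p = 1.80e-08). DUSP6, an ERK phosphatase, averaged 8.45 ± 0.04 at 25 µg/mL and 6.21 ± 0.22 in medium, a change of 2.24 (adjusted p = 4.23e-07). EGR1, an immediate early transcription factor, changed by 1.88 (adjusted p = 3.94e-08). These 4 kept their direction and call under both control scalings. The list had 7 genes higher and 1 lower with poly-A scaling, 12 and 1 with hybridization scaling, and 16 and 1 when only the groups compared were fitted.

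**Figure D5:**
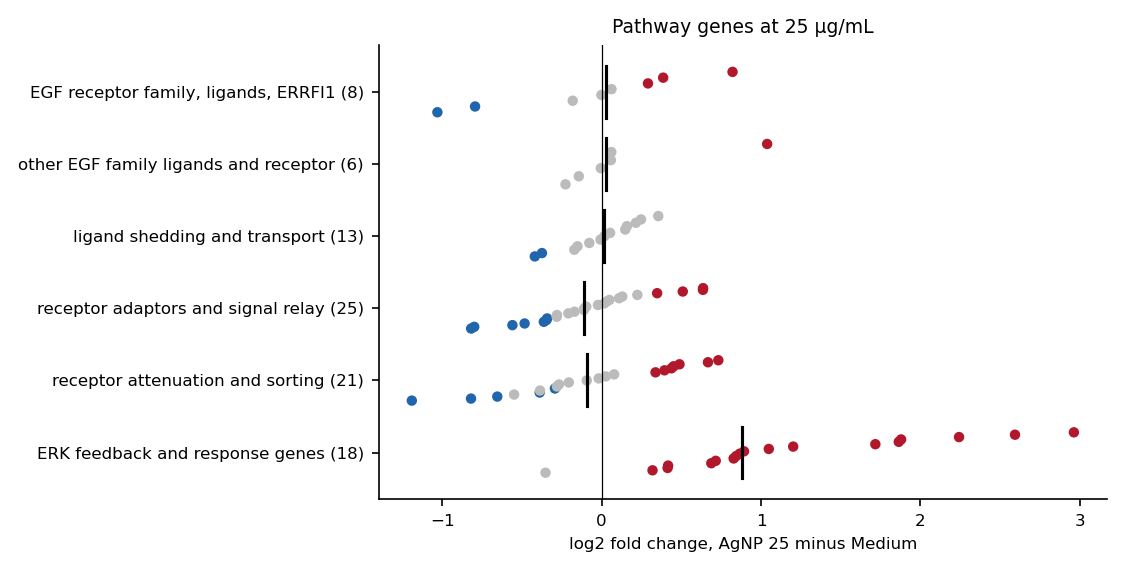
Log2 fold change at 25 µg/mL minus medium (horizontal axis) of the 8 measured members and of the genes of 5 pathway lists, with the number of measured genes in brackets; 1 point per gene, red higher, blue lower, grey not called, and black bars for list medians. The ERK feedback and response genes have a median of 0.88, and the medians of the other groups lie between -0.11 and 0.03.

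The counts of the other lists are read against the same 12.8% higher and 17.9% lower of all genes. Under the control scalings most probe sets on the arrays were lower, so list counts under them are read against other totals. Of all 54613 probe sets, 501 were higher and 36144 lower with poly-A scaling, and 1412 higher and 32263 lower with hybridization scaling. Of the other ligands and receptor of the family, 6 of 7 were measured and 5 of them lay under the median of all values. Of the 6, 1 was higher and 0 lower, with 5 lower under poly-A and 3 under hybridization scaling. NRG1, the neuregulin ligand of ERBB3, averaged 5.98 ± 0.31 at 25 µg/mL and 4.95 ± 0.07 in medium, a change of 1.04 ± 0.15 (adjusted p = 6.57e-05), which was 0.61 (adjusted p = 0.00316) with hybridization and 0.43 (adjusted p = 0.0983) with poly-A scaling. Read as the mean of its probe sets, NRG1 was not called. The fourth receptor, ERBB4, lay at 4.10 at 25 µg/mL and 4.04 in medium. Of 13 genes of ligand shedding and transport, 0 rose and 2 fell: CNIH4, a cornichon cargo receptor, by 0.42 (adjusted p = 0.00208), and ADAM10, a sheddase, by 0.37 (adjusted p = 0.00248). The medians of these lists were 0.03 and 0.02. The shedding and transport list had 8 lower and 0 higher genes under either control scaling. Its count of 0 higher became 2 with quantile normalization, with dim probe sets left out or with 1 probe set per gene, 3 with averaged probe sets, and 1 with an intensity trend, with array weights, without medium replicate 2 or without silver nitrate replicate 1.

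Of 25 measured receptor adaptors and relay proteins among 33 listed, 4 rose and 7 fell, with a median of -0.11, and under either control scaling 0 were higher and 18 lower. PIK3CB, a catalytic subunit of PI3 kinase, changed by -0.82 (adjusted p = 4.48e-06) and NCK2, an SH2 and SH3 adaptor, by -0.80 (adjusted p = 1.71e-05). SOS1, the RAS exchange factor, and SHC1, a phosphotyrosine adaptor, both changed by 0.64 (adjusted p = 0.000371 and 4.15e-05), and neither was called with poly-A scaling (0.02 each) or hybridization scaling (0.21 each). The count of 7 lower genes was 4 without medium replicate 1 or 2, or without 25 µg/mL replicate 2 or 3. Of 21 measured genes of receptor attenuation and sorting among 22 listed, 7 rose and 5 fell, with a median of -0.09, against 0 higher and 14 lower with poly-A and 0 and 13 with hybridization scaling. LRIG1, a membrane protein that promotes loss of ERBB receptors, averaged 6.77 ± 0.07 at 25 µg/mL and 7.96 ± 0.15 in medium, a change of -1.19 ± 0.13 (adjusted p = 4.66e-06). CBLC, a ubiquitin ligase of the CBL family, changed by -0.82 (adjusted p = 4.91e-05). PTPN1, a tyrosine phosphatase, and SOCS3, a cytokine signalling inhibitor, changed by 0.73 (adjusted p = 0.000278) and 0.67 (adjusted p = 0.00314). Neither was called with poly-A scaling (0.12 and 0.05) or hybridization scaling (0.31 and 0.24). The count of 5 lower genes was 3 without medium replicate 3 or without 25 µg/mL replicate 1 or 3, 8 with an intensity trend or only the groups compared, and 9 with dim probe sets left out. At 2.5 µg/mL and with silver nitrate, 0 genes of these 5 lists were called against medium.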

How the data were processed

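The deposited values, 1 column per array for 12 arrays, are log2 expression values, 1 row per probe set. Per the submitters' processing notes, the tools were Partek and RMA, with versions not given in the sources used here. RMA sets the distributions of arrays nearly equal, so a change in total mRNA per cell does not show in the deposited log2 values. No detection calls were used, so dim probe sets have no stated background, and the number of arrays limits the precision. The platform annotation gave 1 symbol to 41091 of 54675 probe sets, 62 were controls, 1801 had several symbols and 11721 had none, and for 41037 the gene ID gave the current symbol. No array duplicated another.

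All 54613 probe sets that are not controls were fitted with limma 3.58.1 in R 4.3.3, in 1 model of the 4 groups, with 6 two-sided contrasts and Benjamini-Hochberg adjustment over all probe sets. Errors of fold changes are SE. The model was tested on simulated data. A gene is read at the probe set of its own with the highest array mean, with the others beside it. All member probe sets are named, together with up to 4 called genes of each pathway list with the largest changes and, for each called member, the 2 genes with the highest Pearson's r. Members and lists were chosen with earlier results of these data known. Promoter windows are RefSeq's, on GRCh38.p14, available here for 8 of the 9 genes, in 10 windows. Figures were drawn with matplotlib 3.10.9.

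Alternatives were quantile normalization, median centring, scaling on poly-A or hybridization controls, leaving out dim probe sets, 1 probe set or the mean of probe sets per gene, an intensity trend, array weights, fitting only the groups compared, an adjusted p under 0.01, a change of at least 1.5-fold, and leaving out each array.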

Additional observations from a re-analysis of the deposited data

How the results depend on the processing

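The counts of called members at 2.5 µg/mL and with silver nitrate against medium, and between these groups, stayed at 0 under all alternatives. Against medium at 25 µg/mL, 14 of 29 probe sets were called, 7 higher and 7 lower. Scaling on poly-A controls gave 0 higher and 20 lower, and on hybridization controls 3 and 16. Of all 54613 probe sets, poly-A scaling gave 501 higher and 36144 lower, and hybridization scaling 1412 and 32263. Leaving out dim probe sets gave 4 lower of 13. With 1 probe set per gene, 5 of 8 genes were called, 3 higher and 2 lower, and averaging the probe sets of each gene gave 4 of 8, 2 and 2. An adjusted p under 0.01 left 8 calls, 3 of them higher, and a change of at least 1.5-fold left 7, 3 higher and 4 lower. Leaving out 1 array gave 8 to 14 calls, 3 to 7 higher and 5 to 7 lower, with 8 calls and 3 higher without medium replicate 1, 9 calls and 4 higher without 25 µg/mL replicate 2, and 4 higher without 25 µg/mL replicate 3. Against 2.5 µg/mL, 10 were called, 5 in each direction. Poly-A scaling gave 24 calls, 0 higher and 24 lower, and hybridization scaling 1 higher and 12 lower. Among all 54613 probe sets these scalings gave 349 higher and 45573 lower, and 1502 higher and 20284 lower. Either rule of 1 value per gene gave 4 of 8 genes, 2 in each direction. An adjusted p under 0.01 and the 1.5-fold limit each left 3 lower. Leaving out 1 array gave 8 to 10 calls, 5 higher and 3 to 5 lower, with 3 lower without replicate 3 of either dose. Against silver nitrate, 11 were called, 6 higher and 5 lower. Both control scalings gave 23 calls, poly-A 0 higher and 23 lower, hybridization 3 and 20. Among all 54613 probe sets poly-A scaling gave 354 higher and 46859 lower, and hybridization scaling 1482 and 35435. With 1 probe set per gene 5 of 8 genes were called, 3 higher and 2 lower, and averaging gave 4 of 8, 2 and 2. The 0.01 limit left 3 lower, and the 1.5-fold limit left 6, 3 in each direction. Leaving out 1 array gave 9 to 12 calls, 5 to 6 higher and 4 to 6 lower. Fewer genes or stricter limits lower these counts by construction. The control scalings lower all values at 25 µg/mL by 0.61 and 0.43 relative to medium, and by other amounts relative to the other groups. The cause of the shift in the controls was not tested.

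Among differences called with or without an alternative, signs reversed only under the control scalings. Of 57 differences of members, 14 that were not called changed sign when 1 array was left out, such as EREG against silver nitrate, which ran from -0.45 to 0.09, and TGFA against medium at 25 µg/mL, from -0.10 to 0.10; 13 that were not called did so under a control scaling and 13 under the remaining alternatives. Against medium, with poly-A scaling first and hybridization scaling after it, EGFR at 201984_s_at became -0.32 and -0.14, HBEGF at 203821_at -0.23 and -0.040, and BTC at 207326_at -0.55 and -0.36. With poly-A scaling alone, HBEGF at 38037_at became -0.18 and EREG at 1569583_at -0.13. Against 2.5 µg/mL, poly-A scaling turned EGFR to -0.65, HBEGF to -0.23 and BTC to -0.72. Against silver nitrate, both scalings turned EGFR to -0.38 and -0.027 and HBEGF to -0.37 and -0.022. Beside the arrays named with each result, median centring ended the calls of EGFR at 201984_s_at (adjusted p = 0.0771) and EREG at 1569583_at (adjusted p = 0.0649), and an intensity trend that of EGFR at 211607_x_at (adjusted p = 0.0517). EGFR at 201984_s_at was also not called when only the groups compared were fitted (adjusted p = 0.0735) or when its probe sets were averaged (adjusted p = 0.0839); the cause was not tested. All genes of an array share the error of its control mean in these fits, so their p-values are not independent between genes. No paired analysis was possible because the array titles carry a different letter for each array and share no replicate number between groups. Without detection calls, levels near or under the median of all values, as those of TGFA and BTC, limit what can be detected.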
